A study of Mus musculus with 2 samples.

Results

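Sub1 encodes PC4, a small nuclear protein that binds single-stranded DNA and acts as a coactivator of RNA polymerase II transcription. It was examined together with the genes of other single-stranded DNA binders, the replication protein A (RPA) subunits Rpa1, Rpa2 and Rpa3 and the mitochondrial binder Ssbp1, and with Ssbp2, Ssbp3 and Ssbp4. These 8 genes were chosen by symbol from the 24061 rows of the count table, and all 8 had enough counts to be measured (at least 20 summed over both libraries). The material was C57BL/6 mouse embryonic stem cells grown with leukaemia inhibitory factor on mouse embryonic fibroblast feeder cells, and poly(A) RNA was sequenced with a stranded kit. There was 1 library labelled control (passages 17 to 23) and 1 labelled Pc4-OE, for Pc4 overexpression (passages 24 to 37), so the label, the culture and the passage cannot be told apart. The design text describes 3 overexpressing lines, picked as fluorescent colonies after lentiviral delivery with a Venus marker. It does not say which line gave the library, nor whether the control cells carried a virus, and the labels do not say whether feeder cells were removed.

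RPA is the main single-stranded DNA binder of the nucleus. Its 3 subunits form a trimer that coats the strands opened in replication, repair and recombination, and it calls in the checkpoint kinase ATR. PC4 binds melted DNA and links transcriptional activators to the general transcription machinery, and it is also known to act in DNA repair. The mitochondrial protein SSBP1 coats single strands during replication of the mitochondrial genome. SSBP2, SSBP3 and SSBP4 share a name with these proteins but work mainly as cofactors that stabilise LDB1, the bridging protein of LIM-domain transcription factor complexes.

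The starts of Sub1, the gene named in the label, and of the RPA genes are shown. The RPA genes had ratios on the same side of 1 as Sub1. So did Ssbp1, Ssbp3 and Ssbp4, whose starts are not printed. All 8 genes were found in the RefSeq promoter table (build GRCm38.p6), with 9 start sites in all. Each window runs from 250 bases before to 50 bases after the start, and capitals mark the letters CCAAT on either strand (CCAAT or ATTGG), the core of the CCAAT box bound by the factor NF-Y. The Sub1 window lies at chr15:11995958-11996257 (minus strand), that of Rpa1 at chr11:75348334-75348633 (minus), that of Rpa2 at chr4:132768110-132768409 (plus) and that of Rpa3 at chr6:8259092-8259391 (minus).
Sub1: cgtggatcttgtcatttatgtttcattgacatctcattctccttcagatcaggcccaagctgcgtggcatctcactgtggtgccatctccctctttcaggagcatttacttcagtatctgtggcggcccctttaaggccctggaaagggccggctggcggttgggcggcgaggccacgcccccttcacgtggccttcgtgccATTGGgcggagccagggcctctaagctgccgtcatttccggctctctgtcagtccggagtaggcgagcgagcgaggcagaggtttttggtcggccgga
Rpa1: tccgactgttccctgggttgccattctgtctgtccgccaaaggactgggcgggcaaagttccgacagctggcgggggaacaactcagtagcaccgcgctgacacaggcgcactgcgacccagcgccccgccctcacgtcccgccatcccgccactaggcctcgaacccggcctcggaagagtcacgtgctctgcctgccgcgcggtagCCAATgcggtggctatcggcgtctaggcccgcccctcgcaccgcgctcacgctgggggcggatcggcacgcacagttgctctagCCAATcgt
Rpa2: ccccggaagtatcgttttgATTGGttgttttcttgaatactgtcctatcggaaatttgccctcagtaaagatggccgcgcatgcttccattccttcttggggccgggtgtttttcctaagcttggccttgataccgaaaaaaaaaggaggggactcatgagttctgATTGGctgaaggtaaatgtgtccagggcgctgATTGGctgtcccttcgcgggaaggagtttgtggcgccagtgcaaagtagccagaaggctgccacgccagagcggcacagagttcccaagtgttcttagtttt
Rpa3: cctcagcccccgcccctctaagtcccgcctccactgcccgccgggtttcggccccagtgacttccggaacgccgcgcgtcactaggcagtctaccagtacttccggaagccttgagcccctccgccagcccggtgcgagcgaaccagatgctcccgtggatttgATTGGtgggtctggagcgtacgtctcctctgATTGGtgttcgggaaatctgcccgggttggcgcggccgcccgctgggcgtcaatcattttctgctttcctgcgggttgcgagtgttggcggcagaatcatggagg

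CCAAT stood in 8 of the 9 windows, which belong to 7 of the 8 genes, against 37.4% of the 32851 promoter windows of the table. Rpa2 and Ssbp4 held 3 copies each, Rpa1 and Rpa3 2 each, and Sub1 1. At least 2 copies were present in 11.7% of all windows. The window of Ssbp1, a gene also with a ratio below 1, held none. Of the other motifs searched on both strands, GGGCGG (the GC box) stood in 7 of the 9 windows against 35.7% of all, CCGGAA (the core of ETS sites) in 5 against 14.9%, and CACGTG (an E-box) in 2, those of Sub1 and Rpa1, against 7.15%. In Rpa3, 4 matches to CCGGAA lay at 2 sites, each read on both strands. The 9 windows were 50.7% (Rpa2) to 80.3% (Ssbp3) G and C, against a median of 52.7% over all windows. The richest were those of Ssbp3, Ssbp2 (75.3%) and Ssbp4 (70.0%), and matches to short motifs depend on base composition. The 32851 windows were not limited to genes measured here, and the shares over measured genes alone were not computed. The motif matches describe the letters only.

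Levels are given as CPM, the counts of a gene relative to the size of its library, with library sizes adjusted by TMM (trimmed mean of M values), which evens out differences in composition. The 95% intervals of ratios are exact (Clopper-Pearson) intervals of the 2 counts of a gene. They reflect the sampling of reads alone: reads from PCR are not separate molecules, and with 1 library per label the spread between cultures is unknown. There are therefore no p-values, and every difference is one between 2 libraries. The libraries held 10571463 and 10194783 counts. The 2-fold rule asks for a ratio of 2 or more in either direction with an interval that leaves out 1. In bulk RNA, fewer cells of a type and less RNA per cell cannot be told apart. Markers of the cultured cells differed between the libraries: the 17 fibroblast markers summed to 6989 CPM under the control label and to 17705 CPM under the Pc4-OE label, the 9 macrophage markers in the table to 207 and 514 CPM, and the 10 stem cell markers to 6023 and 4914 CPM. None of the markers stood at 0. The stem cell markers did not move together: 6 of the 10 had a ratio below 1 and 4 above. Tdgf1 (1792 and 1114 CPM) and Pou5f1 (1092 and 571 CPM) were among the 6. Nanog (428 and 506 CPM) and Dppa5a (1007 and 1057 CPM) were among the 4. Of the macrophage sums, Laptm5 alone gave 110 and 132 CPM. The median log2 ratio of the 9 macrophage markers was 2.10, and 8 of them were at least 2-fold higher (11.8% of all genes). The fibroblast markers Vim and Fn1 are also expressed by other cells. The part of these differences in the results below was not tested.

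Sub1, the gene named as overexpressed, had 5522 counts (530.3 CPM) in the library labelled control and 2432 counts (235 CPM) in the library labelled Pc4-OE. The Pc4-OE-labelled library was thus at 44.3% of the control-labelled one, against the direction of its label. The log2 ratio of Pc4-OE to control was -1.17 (interval -1.24 to -1.11), a 2.26-fold lower value. Sub1 was the only one of the 8 genes to meet the 2-fold rule, which 4.02% of the 14213 measured genes met in that direction, and none of the 8 met it in the other, which 11.8% of genes did. Because the direction goes against the label, each library is called by its label here, and every direction in the text is that of the labels. Whether the labels stand on the right libraries was not tested: with the labels exchanged, Sub1 would be 2.26-fold higher in the overexpressing cells and each direction below would turn. The sequence of the viral insert is not given in the labels, so how far RNA from it would be counted at Sub1 is unknown. By level, Sub1 ranked 213th of the measured genes in the control-labelled library and 726th in the other. Of 213 other genes at or above its control level, 5 had a log2 ratio at or below that of Sub1. Other genes also carry PC4 as a synonym. Ifrd1, a transcriptional coregulator, had 1207 and 1081 counts (log2 ratio -0.15, interval -0.27 to -0.03), and the protease gene Pcsk4, named after its values were seen, had 59 in each library.

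**Figure D1:**
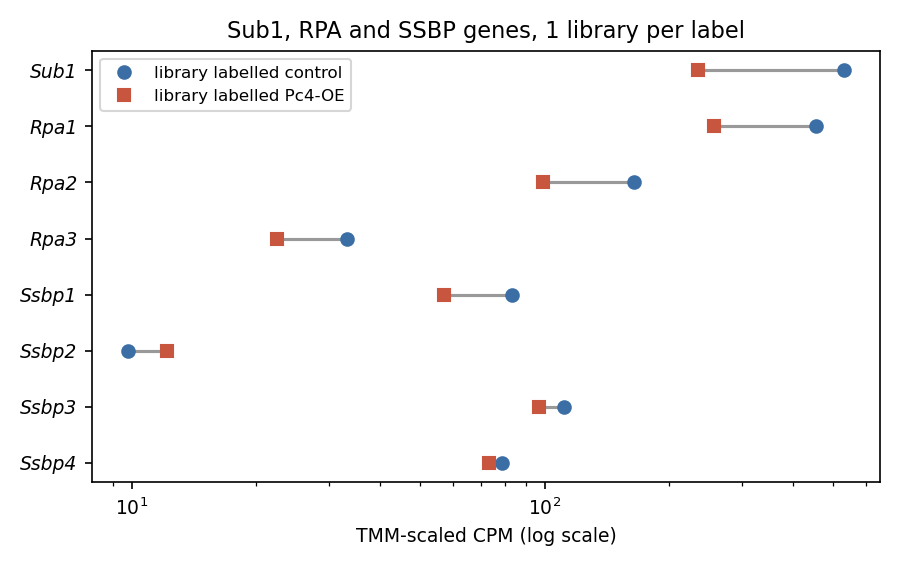
Level of each of the 8 genes in the library labelled control (circles) and the library labelled Pc4-OE (squares), in TMM-scaled CPM on a log axis, with a line joining the values of a gene. Sub1 stands at 530.3 and 235 CPM, and Ssbp2 is the only gene whose square lies to the right of its circle.

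The genes of the RPA trimer were each lower in the library labelled Pc4-OE. Rpa1, the large subunit that holds most of the DNA-binding domains, had 4727 counts (454 CPM) under the control label and 2662 (257 CPM) under the other, a log2 ratio of -0.82 (interval -0.89 to -0.75). Rpa2, the subunit phosphorylated upon replication stress, had 1711 counts (164 CPM) and 1024 (98.9 CPM), a log2 ratio of -0.73 (-0.85 to -0.62). Rpa3, the small subunit needed to assemble the trimer, had 346 counts (33.2 CPM) and 233 (22.5 CPM), a log2 ratio of -0.56 (-0.81 to -0.32). The intervals of all 3 lay below 0, and none of the 3 met the 2-fold rule. Summed over the trimer, the level was 651 and 379 CPM (log2 ratio -0.78, interval -0.84 to -0.73). An interval wholly below 0 was found for 6 of the 8 genes and for 33.1% of all measured genes, and one wholly above 0 for 0 of the 8 and 31.2% of all. More counts give a narrower interval, which leaves out 0 more readily. Sub1 and Rpa1 stood at the 98.5th and 98.0th percentile of measured genes by control-labelled level, and Ssbp2 at the 29.6th. The share among genes of like counts was not computed, here or for the lists below.

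The shares of the 3 genes in the trimer's read counts, which do not depend on the scaling between libraries, were close in both libraries, and the intervals of each share overlapped. Counts grow with transcript length, so these are not shares of molecules. Per kilobase of the longest transcript, Rpa1, Rpa2 and Rpa3 had 38.9%, 39.5% and 21.6% in the control-labelled library and 36.5%, 39.3% and 24.2% in the other. These shares depend on the transcript used for Rpa1, of 5077 bases. With its shortest, of 2942 bases, Rpa1 had 154 and 87.4 CPM per kb in the 2 libraries, above Rpa2 at 90.6 and 54.6. Rpa1 made up 69.7% (exact interval 68.6% to 70.8%) of the counts of the 3 genes in the control-labelled library and 67.9% (66.4% to 69.4%) in the other. Rpa2 made up 25.2% (24.2% to 26.3%) and 26.1% (24.8% to 27.5%), and Rpa3 5.10% (4.59% to 5.65%) and 5.95% (5.23% to 6.73%). The log2 ratio of Rpa1 differed from that of Rpa2 by -0.09 (counting interval -0.22 to 0.04) and from that of Rpa3 by -0.26 (-0.51 to -0.01), and that of Rpa2 differed from that of Rpa3 by -0.17 (-0.43 to 0.09). The Rpa1 and Rpa3 ratios thus differed just beyond counting error, and the other pairs could not be separated at this depth.

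**Figure D2:**
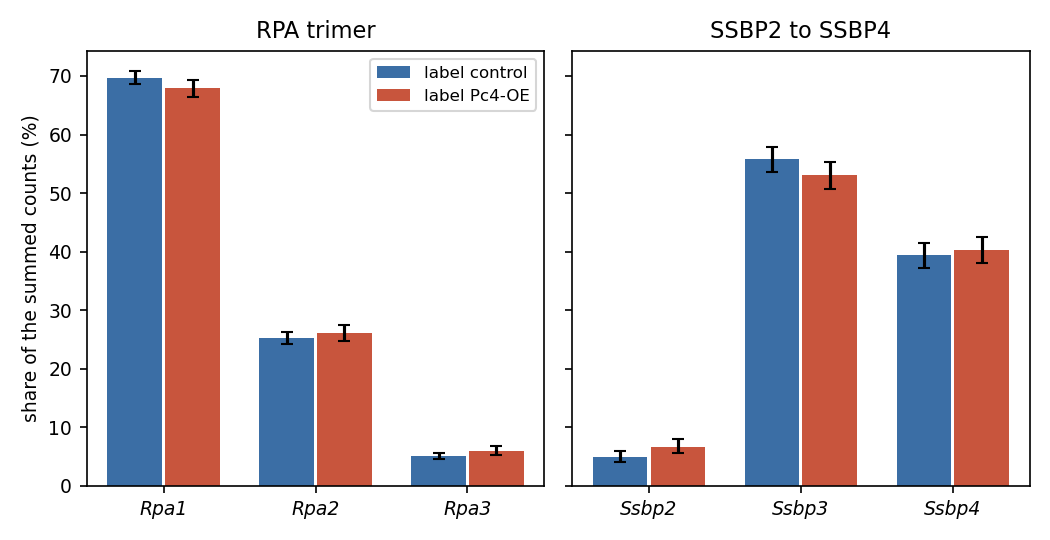
Share of each gene in the summed counts of the RPA trimer (left) and of Ssbp2, Ssbp3 and Ssbp4 (right), in percent, for the library labelled control and the library labelled Pc4-OE. Bars start at 0 and error bars are exact 95% binomial intervals; Rpa1 holds 69.7% and 67.9% of the RPA counts.

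Ssbp1, the mitochondrial binder, was also lower. It had 868 counts (83.4 CPM) under the control label and 590 (57.0 CPM) under the Pc4-OE label, a log2 ratio of -0.55 (interval -0.70 to -0.40). Its ratio could not be separated from that of Rpa3 (Rpa3 minus Ssbp1 -0.01 on the log2 scale, interval -0.30 to 0.27).

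The LDB1 cofactor genes differed little between the libraries. Ssbp3 had 1160 counts (111 CPM) under the control label and 1001 (96.7 CPM) under the other, a log2 ratio of -0.20 (interval -0.33 to -0.08). Ssbp4 had 819 counts (78.7 CPM) and 760 (73.4 CPM), a log2 ratio of -0.10 (-0.24 to 0.05). Ssbp2, the least abundant of the 8, had 102 counts (9.80 CPM) and 126 (12.2 CPM), a log2 ratio of 0.31 (-0.07 to 0.70). The intervals of Ssbp4 and Ssbp2 include 0, so no difference was detectable for them at this depth, and the Ssbp2 interval spans a wide range. Within this family Ssbp3 gave 55.7% of the counts in the control-labelled library and 53.0% in the other, Ssbp4 39.4% and 40.3%, and Ssbp2 4.90% (4.01% to 5.92%) and 6.68% (5.59% to 7.90%). Summed, the 3 genes stood at 199.8 and 182 CPM (log2 ratio -0.13, interval -0.22 to -0.04).

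**Figure D3:**
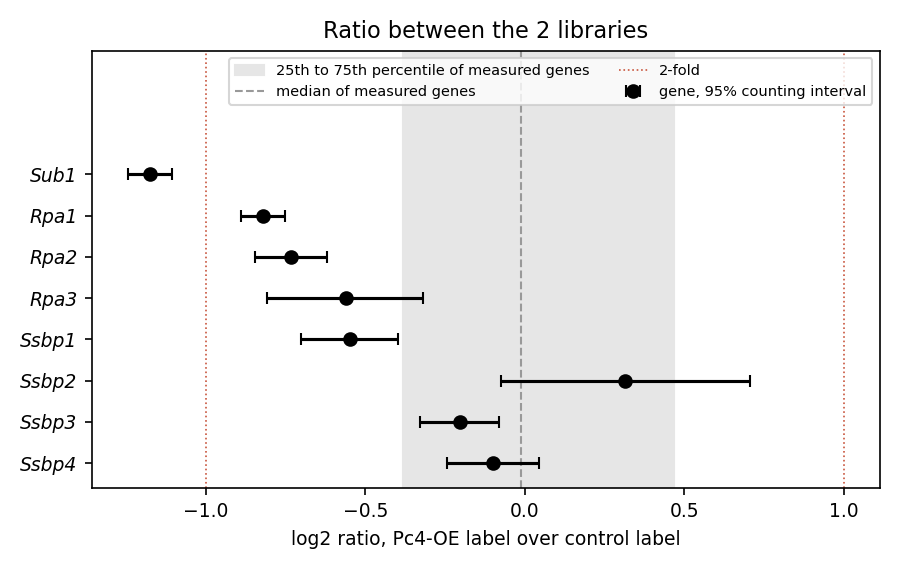
Log2 ratio of the library labelled Pc4-OE to the library labelled control for each of the 8 genes, with the 95% counting interval. The grey band spans the 25th to 75th percentile of all measured genes (-0.38 to 0.47), the dashed line is their median (-0.01) and the dotted lines mark 2-fold; Sub1, Rpa1, Rpa2, Rpa3 and Ssbp1 have ratios to the left of the band.

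The ratios were ordered from Sub1 through Rpa1, Rpa2, Rpa3, Ssbp1, Ssbp3 and Ssbp4 to Ssbp2. Of the 28 pairs among the 8 genes, 23 had log2 ratios that differed beyond counting error, by a normal approximation on the log scale. The neighbours Rpa1 and Rpa2, Rpa2 and Rpa3, Rpa3 and Ssbp1, and Ssbp3 and Ssbp4 did not, nor did Rpa2 and Ssbp1. The share for pairs of other genes was not computed, so the 23 pairs cannot be read as particular to these genes. Sub1 was below the next gene, Rpa1, by 0.35 (difference -0.35, interval -0.45 to -0.26), so that it had 1.17 counts per Rpa1 count in the control-labelled library and 0.914 in the other. Rpa3 and Ssbp1 were in turn below Ssbp3 by log2 differences of -0.36 (-0.63 to -0.09) and -0.34 (-0.54 to -0.15). With the labels as given, and from the lowest ratio up, Sub1 stood among all measured genes at the 2.71st percentile of log2 ratios, Rpa1 at the 7.20th, Rpa2 at the 9.54th, Rpa3 at the 15.7th and Ssbp1 at the 16.2nd. Ssbp3 (36.9th), Ssbp4 (44.3rd) and Ssbp2 (68.9th) lay in the middle of the distribution. The median log2 ratio of the 8 genes was -0.55, beside -0.01 for all measured genes, and 7 of the 8 had a ratio below 1, as did 50.7% of all.

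Levels of different genes were compared per kilobase of transcript, with the longest protein-coding transcript of GENCODE M21. On that scale Sub1 was highest in both libraries, at 157 CPM per kb in the control-labelled library and 69.7 in the other. Rpa2 (90.6 and 54.6) and Rpa1 (89.4 and 50.7) followed, then Rpa3 (49.6 and 33.6), Ssbp4 (43.0 and 40.2) and Ssbp3 (34.9 and 30.3), with Ssbp4 above Rpa3 in the library labelled Pc4-OE. Ssbp2 was lowest at 2.48 and 3.08 CPM per kb. The place of Ssbp1 depended on the transcript: it was 19.0 and 13.0 CPM per kb with its longest transcript of 4398 bases, and 89.3 and 61.1 with its shortest of 933. With the shortest transcript of each gene Rpa1 was above Rpa2, and Ssbp1 was above Ssbp3, Ssbp4 and Rpa3. In the library labelled Pc4-OE, Ssbp1 (61.1) and Ssbp3 (55.5) then also stood above Rpa2 (54.6). Sub1, at 786 and 348 CPM per kb, and Ssbp2 kept the highest and lowest places. The files do not say which transcripts were present.

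Set against stem cell genes, Sub1 was lower relative to each of the 3 compared. Pou5f1, which encodes the pluripotency factor OCT4, had 11373 counts in the control-labelled library and 5914 in the other (log2 ratio -0.93). Sub1 had 0.486 counts per Pou5f1 count in the former and 0.411 in the latter, a difference of log2 ratios of -0.24 (counting interval -0.32 to -0.16). Sox2 and Nanog, also core pluripotency factors, had log2 ratios of -0.02 and 0.24, and Sub1 differed from them by -1.16 (-1.25 to -1.07) and -1.42 (-1.51 to -1.33). Rpa1 differed from Pou5f1 by 0.11 (0.03 to 0.20), from Sox2 by -0.80 and from Nanog by -1.06. The direction of the RPA genes relative to the stem cell genes therefore depended on which of these genes was used. The 10 stem cell markers had a median log2 ratio of -0.13, with members from -0.93 to 0.54. For the 17 fibroblast markers the median was 1.30, and Col1a1, a fibrillar collagen gene, stood at 732 and 1536 CPM.

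Sub1 is on chromosome 15, at 11981336 to 11996038 on GRCm38. Of the 10 nearest measured genes, 5 on each side, 9 had a ratio below 1, with a median log2 ratio of -0.57 and a range of -1.31 to 0.29. Sub1 was the second lowest of the 11. The nearest gene on the side of lower coordinates, Npr3, a natriuretic peptide receptor, had only 30 and 29 counts (log2 ratio -0.04, interval -0.83 to 0.75). On the other side Zfr, a zinc finger RNA-binding protein, had 2211 and 1706 counts (-0.37, -0.46 to -0.27). Within 12 Mb of Sub1, 29 of 38 other genes averaging 5 CPM or more had a ratio below 1, their median was -0.56, and 5 were lower than Sub1. Most of the 38 lay on the side of lower coordinates. The share of all genes below 1 under the same 5 CPM filter was not computed. Of the 10 neighbours of Rpa1, 3 were below 1 (median 0.45), of those of Rpa2 6 (median -0.28) and of those of Rpa3 6 (median -0.21), beside 50.7% of all genes. Around Ssbp1, Ssbp2, Ssbp3 and Ssbp4, 4, 5, 8 and 4 of the 10 neighbours were below 1, with medians of 0.07, 0.01, -0.16 and 0.24. No test of these regions was made.

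**Figure D4:**
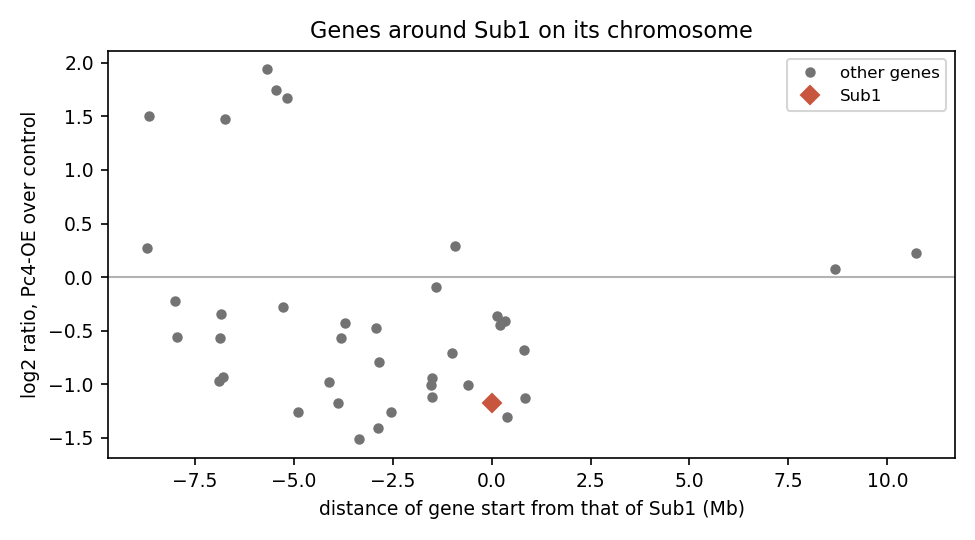
Log2 ratio of the library labelled Pc4-OE to the library labelled control for genes averaging 5 CPM or more within 12 Mb of Sub1 on chromosome 15, by distance of the gene start from that of Sub1 in Mb. Of the 38 other genes (grey), 29 lie below 0, and Sub1 (diamond) lies at -1.17.

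The 5 protein-coding genes with levels nearest to those of Sub1 in both libraries, by distance in log2 CPM over the 2 libraries, were Nolc1, Set, Mcm7, Drosha and Hnrnpm. Nolc1, a nucleolar phosphoprotein, was nearest (distance 0.11) with 516 and 252 CPM. Set, a histone chaperone, stood at 534 and 258 CPM, and the replication helicase gene Mcm7 at 487 and 248 CPM. Drosha, the nuclear microRNA-processing enzyme, had 483 and 220.4 CPM. It lies on chromosome 15, 0.84 Mb from Sub1, and is 1 of the 38 genes within 12 Mb counted above. Hnrnpm, a splicing regulator, had 484 and 252 CPM. With 2 libraries such likeness says only that level and ratio were close.

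Lists of related genes were examined next. The first held 22 genes in the table, all measured, for other single-stranded DNA or nucleic acid binders and some of their partners. Of these, 1 was at least 2-fold lower, a share close to the 4.02% of all genes, 0 were higher (11.8% of all) and 21 neither. Their median log2 ratio was -0.33, beside -0.01 for all genes, and 18 were below a ratio of 1, as were 50.7% of all. Fubp3, which binds the single-stranded element upstream of Myc, had 2447 and 1209 counts and was 2.01-fold lower, a call lost with plain library totals (log2 ratio -0.96). Brca2, a homologous recombination factor, had 2401 and 1313 counts (log2 ratio -0.86). Named after their values were seen, Nabp1 and Nabp2, which encode the DNA-binding subunits of the SOSS repair complex, had log2 ratios of 0.21 (interval 0.05 to 0.36) and -0.55 (-0.75 to -0.35).

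Of 18 measured genes of RPA partners in the checkpoint and at replication forks, 0 met the 2-fold rule (4.02% of all genes lower, 11.8% higher). A ratio below 1 was seen for 15 of them (50.7% of all genes) and an interval wholly below 1 for 14 (33.1% of all), and their median was -0.47. Timeless, a fork protection factor, had 1818 and 1092 counts (log2 ratio -0.73). The nuclease and helicase gene Dna2 had 1139 and 726 counts (-0.64), and Etaa1, an RPA-bound activator of ATR, 691 and 432 (-0.67). Named after their values were seen, the exceptions were Xpa (42 and 76 counts, log2 ratio 0.86, interval 0.30 to 1.44) and Ercc5 (1006 and 1378 counts, 0.46, 0.34 to 0.58), both of nucleotide excision repair, and Atrip, the partner of ATR, at 0.05 (-0.17 to 0.28).

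Of 13 measured genes of mitochondrial DNA replication and transcription, the setting in which SSBP1 works, 0 met the 2-fold rule (4.02% of all genes lower, 11.8% higher). Of these 13, 10 lay below a ratio of 1 (50.7% of all genes) and 7 had an interval wholly below it (33.1% of all), with a median of -0.26. Tfam, which packages the mitochondrial genome, had 1449 and 907 counts (log2 ratio -0.67). Tfb1m, a mitochondrial rRNA methyltransferase, had 285 and 165 counts (-0.78) and Peo1, the mitochondrial helicase Twinkle, 676 and 483 (-0.48). Named after their values were seen, the 4 polymerase genes of the list differed among themselves. Polg and Polg2, the subunits of the mitochondrial DNA polymerase, were at -0.10 (-0.24 to 0.03) and 0.02 (-0.40 to 0.45), both intervals including 0. The mitochondrial RNA polymerase gene Polrmt was at -0.26 (-0.44 to -0.08) and the primase-polymerase gene Primpol at 0.50 (0.26 to 0.74).

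Of 16 genes in the table for LDB1 and its LIM-domain and bound factors only 7 had enough counts, and 2 of the 16 had none in either library. Of the 7, 1 was at least 2-fold higher (11.8% of all genes), 0 lower (4.02% of all) and 6 neither. An interval wholly above 1 was found for 3 of the 7 (31.2% of all), and the median was 0.27. Tcf3 and Tcf12, which encode E proteins and are named after their values were seen, had log2 ratios of -0.08 and 0.01. Ldb1, the protein that SSBP cofactors stabilise, had 1598 and 1792 counts (log2 ratio 0.17, interval 0.08 to 0.27). Rlim, a ubiquitin ligase that targets LDB1 complexes, had 2943 and 3769 counts (0.37, 0.30 to 0.44). Gata2, a transcription factor of blood progenitors and trophoblast, was 3.71-fold higher on 16 and 59 counts.

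Of 11 genes for PC4 partners and namesakes, 0 met the 2-fold rule (4.02% of all genes lower, 11.8% higher). An interval wholly below 1 was found for 9 of the 11 (33.1% of all genes), and the median log2 ratio of the list was -0.38. Ercc5 stands in this list and in that of the RPA partners. Psip1, whose protein takes its name from binding PC4, had 4135 and 2354 counts (log2 ratio -0.80). Polr2a, the largest subunit of RNA polymerase II, had 7040 and 4238 counts (-0.72), and Gtf2h1, a TFIIH subunit, 1714 and 1130 (-0.59). Named after their values were seen, the TFIIA genes Gtf2a1 and Gtf2a2 differed in direction, at 0.25 (0.09 to 0.41) and -0.25 (-0.43 to -0.07), and Cstf2, a polyadenylation factor, was at -0.38. None of these reached the ratio of Sub1.

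**Figure D5:**
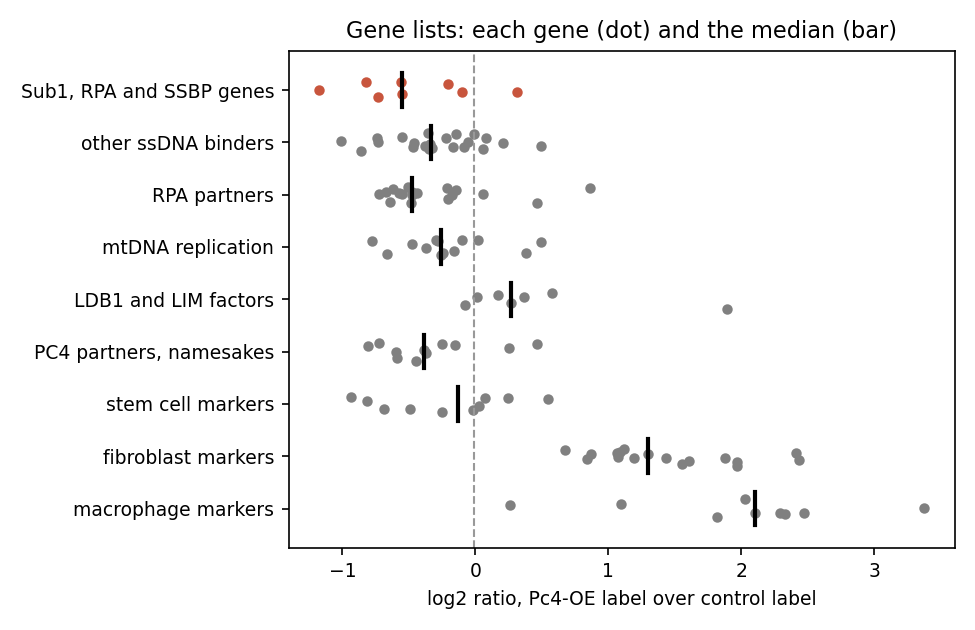
Log2 ratio of the library labelled Pc4-OE to the library labelled control for each measured gene (dots) of the 8 genes and of the lists named on the vertical axis, with the median of each list (bar) and the median of all measured genes (dashed line). The median is -0.55 for the 8 genes, -0.47 for the RPA partners, 0.27 for the LDB1 and LIM factors and 1.30 for the fibroblast markers.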

How the data were processed

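The authors deposited a table of whole-number read counts per gene, 1 column for each of the 2 libraries, with Entrez gene IDs and symbols. STAR 2.4.1c, featureCounts and the build mm10 are named in the submitters' processing notes. Neither the annotation nor the handling of strand and of multiply mapped reads is given there, so reads of overlapping or copied genes may be shared. Columns were matched to samples by title. TMM-scaled CPM came from edgeR 4.0.16, with DESeq2 1.42.0 size factors, library totals, a pseudocount of 0.5 CPM and other count minimums as alternatives. Ratios carry 95% exact binomial intervals (SciPy 1.17.1). The intervals and the 2-fold rule, but not the other steps, were tested on simulated counts. Those counts had known library sizes and varied by the sampling of reads alone. Positions came from RefSeq (GRCm38.p6) by gene ID, which matched 23977 of 24061 rows, and transcript lengths from GENCODE M21 by symbol. The 8 genes, the lists and the rules were chosen with earlier results of these data known. From each list the text names the genes meeting the 2-fold rule or the 3 with the interval bound farthest from 0, whichever were more, up to 6, and other genes where it says so. A gene that this rule names is not reported here. Of the fixed symbols Stn1, Twnk and Adgre1, the table holds only the older names Obfc1, Peo1 and Emr1.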

Additional observations from a re-analysis of the deposited data

How the results depend on the processing

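The 8 log2 ratios and the counts of genes meeting the 2-fold rule were recomputed with 5 alternatives: DESeq2 size factors, library totals, a pseudocount of 0.5 CPM, a minimum of 100 summed counts, and no minimum beyond 1 count in each library. A count minimum cannot change a gene's own ratio, which leaves 44 other values. Of these, 42 stayed within the counting interval or within 1.5 times the count. The 44 include how many of the 8 genes met the rule under either count minimum. Those values could not change either, since all 8 genes had more than 100 summed counts. Sub1 ranged from -1.18 to -1.13, Rpa1 from -0.83 to -0.78, Rpa2 from -0.74 to -0.69, Rpa3 from -0.57 to -0.52, Ssbp1 from -0.56 to -0.50, Ssbp2 from 0.30 to 0.36, Ssbp3 from -0.21 to -0.16 and Ssbp4 from -0.11 to -0.06. Sub1 remained the 1 gene of the 8 that met the rule. With at least 100 summed counts, 366 genes were at least 2-fold lower and 1095 higher, from 572 and 1673, among 11637 genes in place of 14213. The numbers called fell more steeply than the number of genes counted. The shares of 4.02% and 11.8% of all genes given above therefore depend on the minimum and were smaller at the higher one. Alternatives for Fubp3 and Gata2 were chosen after seeing the data: the log2 ratio of Gata2 was 1.61 with the pseudocount. No paired analysis was possible because each group has 1 library, and no library could be left out for the same reason. The depth limits Ssbp2 most, with 102 and 126 counts.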
